A study of Mus musculus with 2 samples.

Results

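The cathepsin G, chymase and granzyme cluster is a run of serine protease genes on mouse chromosome 14. The annotation (GENCODE vM21) holds 21670 protein-coding genes. The 10 described here are Ctsg, Mcpt8, Cma1, Gzmb, Gzmc, Gzmd, Gzme, Gzmf, Gzmg and Gzmn. They were chosen by name, with earlier results of these data known. Their open chromatin was read from 50 kb before the first gene to 50 kb after the last, a window of 420.8 kb that held 14 of the 75148 open regions of the series. Open chromatin had been mapped with ATAC-seq, in which the Tn5 transposase cuts accessible DNA and the cut fragments are sequenced. The cells were granulocyte monocyte progenitors (GMP), the bone marrow precursors of neutrophils and monocytes. They were primary cells of C57BL/6J mice, male adults at 5 to 6 weeks of age, with no genotype change or treatment named. The series holds 1 group of 2 biological replicates with an input of 50000 cells each. The replicates have separate biosample labels and share 1 donor label, and the labels do not say how cells were isolated.

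All 10 genes code for serine proteases. Proteases of this family are typically made as inactive precursors, packed into granules on the proteoglycan serglycin and activated by the dipeptidyl peptidase cathepsin C. Although the genes are neighbours and arose by duplication, different cells use them. Cathepsin G (Ctsg) is known from neutrophil primary granules, Mcpt8 from basophils, the chymase Cma1 from mast cells and granzyme B (Gzmb) from cytotoxic T and natural killer (NK) cells. Granzymes C to G are known from activated cytotoxic lymphocytes of the mouse, and Gzmn from mouse testis.

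The promoters of 2 of the 10 genes were open, those of Mcpt8 and Ctsg. A promoter is called open here where the summit of a region lies within 1000 bp of an annotated start site of the gene, and 61.4% of all protein-coding genes had one in the series-level list, which was made from both replicates. The other 8 genes, Cma1 and all 7 granzyme genes, had none. The same pair of genes was open in replicate 1, where 60% of all genes were open, and in replicate 2, where 56.6% were. It was also the same pair in the authors' looser series-level list, where 69.2% of all genes were open. The median distance from a start site to the nearest summit was 16.3 kb over the 10 genes and 0.183 kb over all protein-coding genes. A gene with no open promoter is more than 1000 bp from any summit by definition. The difference therefore follows in part from the 8 genes without one.

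Both open promoters are shown because they are the ones of the 10 that held a region. Each is the RefSeq promoter, 250 bases before to 50 after the start site on the reverse strand of GRCm38.p6, at chr14:56102525-56102824 for Ctsg and chr14:56085148-56085447 for Mcpt8. Capitals mark words searched as motifs, and base 251 is the start site.
Ctsg promoter: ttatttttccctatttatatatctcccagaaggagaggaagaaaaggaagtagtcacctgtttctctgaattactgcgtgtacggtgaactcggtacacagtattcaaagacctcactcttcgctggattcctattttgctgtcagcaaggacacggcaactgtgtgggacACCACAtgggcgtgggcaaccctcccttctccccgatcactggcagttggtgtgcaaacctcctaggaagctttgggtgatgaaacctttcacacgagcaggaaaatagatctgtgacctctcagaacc
Mcpt8 promoter: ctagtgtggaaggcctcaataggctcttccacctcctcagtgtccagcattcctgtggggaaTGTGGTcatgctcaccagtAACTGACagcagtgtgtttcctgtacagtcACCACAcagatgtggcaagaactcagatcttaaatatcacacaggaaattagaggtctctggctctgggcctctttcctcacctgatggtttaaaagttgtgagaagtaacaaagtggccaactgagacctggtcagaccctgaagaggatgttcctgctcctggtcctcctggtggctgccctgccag
Distances before and after a start site follow the direction of the gene, and all 10 genes lie on the reverse strand. The summit of the Ctsg region fell on base 237, 14 bp before the start site. The summit of the Mcpt8 region fell on base 77, 174 bp before it.

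The Mcpt8 promoter region, chr14:56084980-56085548, had the highest fold enrichment of the 14 regions in the series-level list, and in replicate 1 the promoter of the gene Sdr39u1 was above it. Fold enrichment is the authors' deposited value for a region, with an unstated denominator, and it is read only within a list. The Mcpt8 region had a fold of 13.2 in replicate 1 and 9.36 in replicate 2, which put it above 85.0% of the regions of replicate 1 and above 70.1% of those of replicate 2. In the series-level list its fold was 12.2, above 84.5% of all regions. Its promoter sequence holds the word TGTGGT of the RUNX factors at bases 63 to 68, the MYB word AACTGAC at bases 82 to 88 and, on the other strand, the RUNX word as ACCACA at bases 112 to 117. The 3 words have their centres within 37 bases of the summit. The sequence holds 0 CpG dinucleotides, against a median of 7 over 32851 RefSeq promoters.

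The Ctsg promoter region, chr14:56101917-56102756, was 840 bp wide with a low fold. It had a fold of 6.05 in replicate 1 and 5.34 in replicate 2, above 14.1% and 13.6% of the regions of those lists. Its q value stood higher in the lists than its fold. On the -log10 scale, on which a larger value is a smaller q, it was 50.2 in replicate 1 and 37.9 in replicate 2, above 69.0% and 60.5% of the regions. The series-level values were a fold of 5.83 and a -log10 q of 88.8. The promoter holds 1 RUNX word, ACCACA at bases 172 to 177, with its centre 63 bases from the summit, and 8 CpG dinucleotides.

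**Figure D1:**
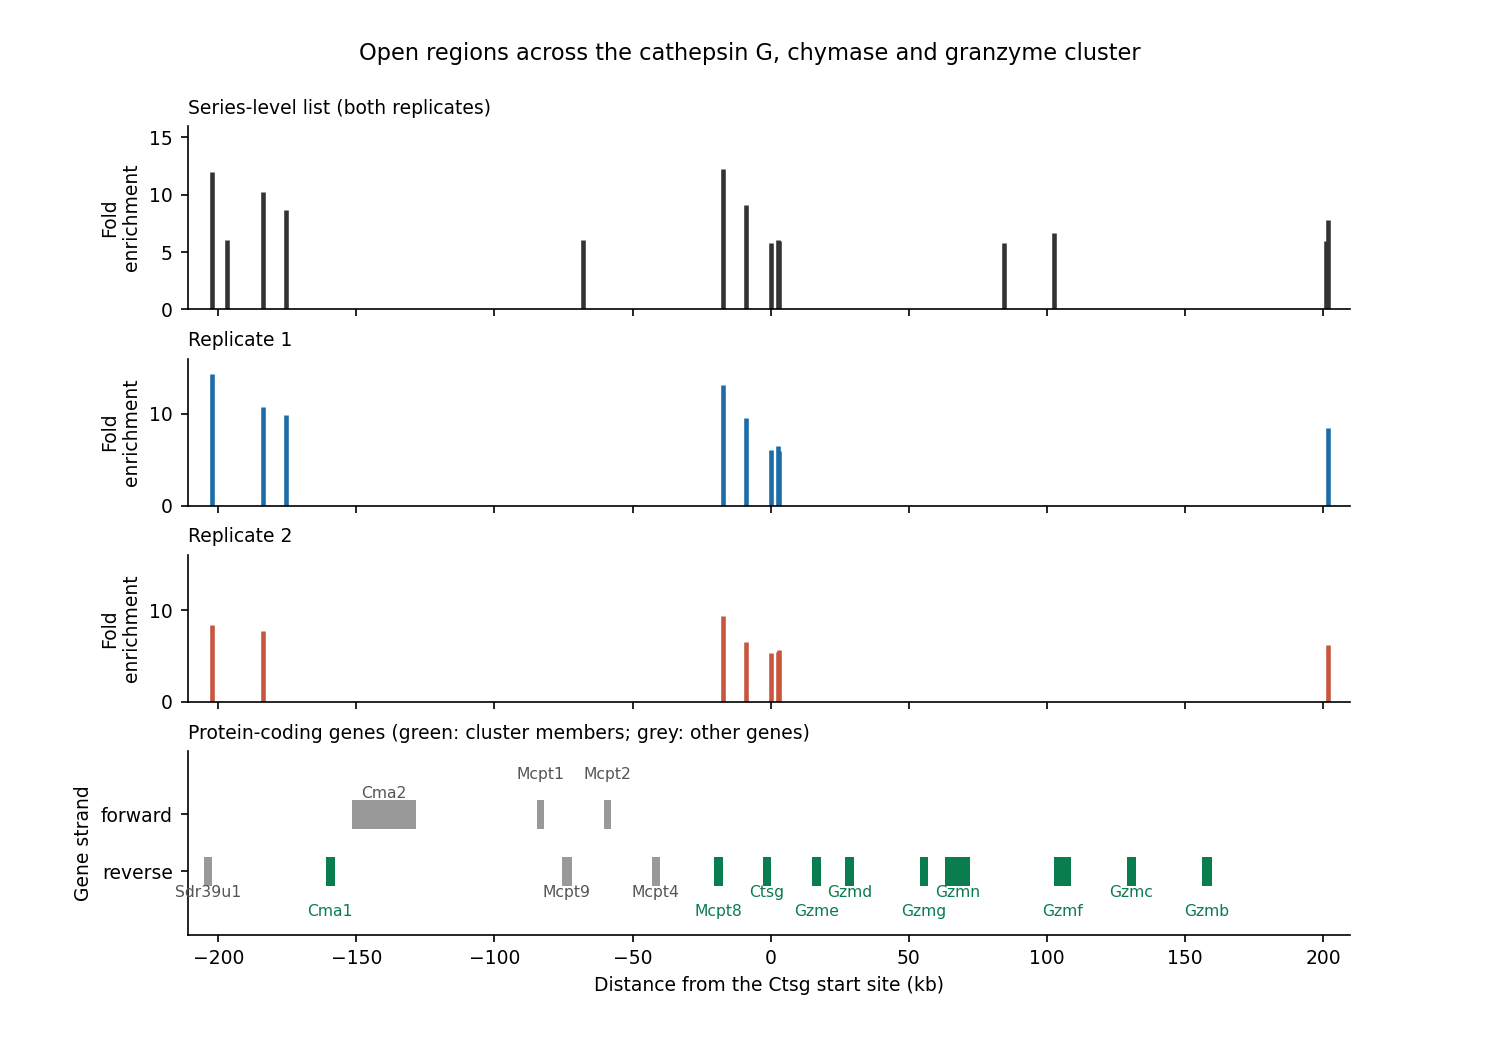
Open regions and genes by distance from the Ctsg start site (kb, increasing along chromosome 14). Bars stand at region summits, with the fold enrichment in the series-level list and in each replicate's thresholded list, and the lowest panel gives the genes. The 5 regions from the Mcpt8 promoter to the pair before Ctsg stand in every list, with long empty stretches on both sides.

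Mcpt8 and Ctsg lay in a compact open block, whose ends were set at its outer regions after the data were seen. From the Mcpt8 promoter to the region farthest before Ctsg, chr14:56084980-56106112, 21.1 kb held 5 regions that covered 13.4% of it. All 5 were in the thresholded lists of both replicates. As a description only, since the block was chosen for its regions, a window of the same length that starts at a summit held a median of 2 regions over the whole list. Besides the 2 promoters, the block held 1 region between the genes and a pair of regions before Ctsg. They are shown as the 101 bases around each summit, on the forward strand, with motif words in capitals.
Region between Mcpt8 and Ctsg, chr14:56093509-56093609: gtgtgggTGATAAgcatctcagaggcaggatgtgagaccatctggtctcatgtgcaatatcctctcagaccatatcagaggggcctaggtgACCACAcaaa
Nearer region before Ctsg, chr14:56105164-56105264: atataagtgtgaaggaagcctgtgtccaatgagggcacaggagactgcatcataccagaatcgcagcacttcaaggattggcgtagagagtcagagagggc
Farther region before Ctsg, chr14:56105613-56105713: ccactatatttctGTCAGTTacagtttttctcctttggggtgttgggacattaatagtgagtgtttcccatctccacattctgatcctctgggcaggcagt

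The region between the genes, chr14:56093313-56093752, had its summit 8.36 kb before the Mcpt8 start site. Its fold was 9.50 in replicate 1 and 6.53 in replicate 2, and 9.09 in the series-level list. It holds a GATA word, TGATAA, at bases 8 to 13 of the sequence shown and the RUNX word ACCACA at bases 92 to 97. The nearer region before Ctsg, chr14:56105052-56105399, had its summit 2.64 kb before that start site and a fold of 6.49 in replicate 1 and 5.42 in replicate 2. The farther one, chr14:56105488-56106112, had its summit 3.09 kb before it, with a fold of 5.97 in replicate 1 and 5.68 in replicate 2. Only 0.088 kb separates this pair. The nearer region matches none of the words searched within 50 bp of its summit, and the farther one has the MYB word, as GTCAGTT, at bases 14 to 20.

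The Ctsg promoter and the pair before it shared a high -log10 q for their fold. These 3 regions are neighbours, with the pair only 0.088 kb apart, so they are not separate cases. In the series-level list the 3 regions had a fold between 5.83 and 6.08 and a -log10 q of 88.8, 90.5 and 87.0. Regions of the list with a fold within 0.25 of theirs had a median -log10 q of 30.0, 32.5 and 30.7. The Ctsg promoter was above 97.0% of those 4838 regions, the nearer upstream region above 96.3% of 4724 and the farther one above 96.3% of 4932. The pattern was present in each replicate. The 3 regions were above 93.7 to 95.7% of regions of like fold in replicate 1 and above 92.5 to 94.7% in replicate 2. The Mcpt8 promoter, with a -log10 q of 68.0, was above only 24.3% of regions of like fold, and the region between the genes above 29.9%. The 3 Ctsg regions had the highest -log10 IDR of the 14, at 3.40, 3.36 and 3.38. The irreproducible discovery rate (IDR) scores how well a region's rank repeats between replicates. It comes from the same 2 replicates as the q values, so it is no separate measurement. The Ctsg promoter region was merged from 2 rows, and its IDR may be that of either.

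**Figure D2:**
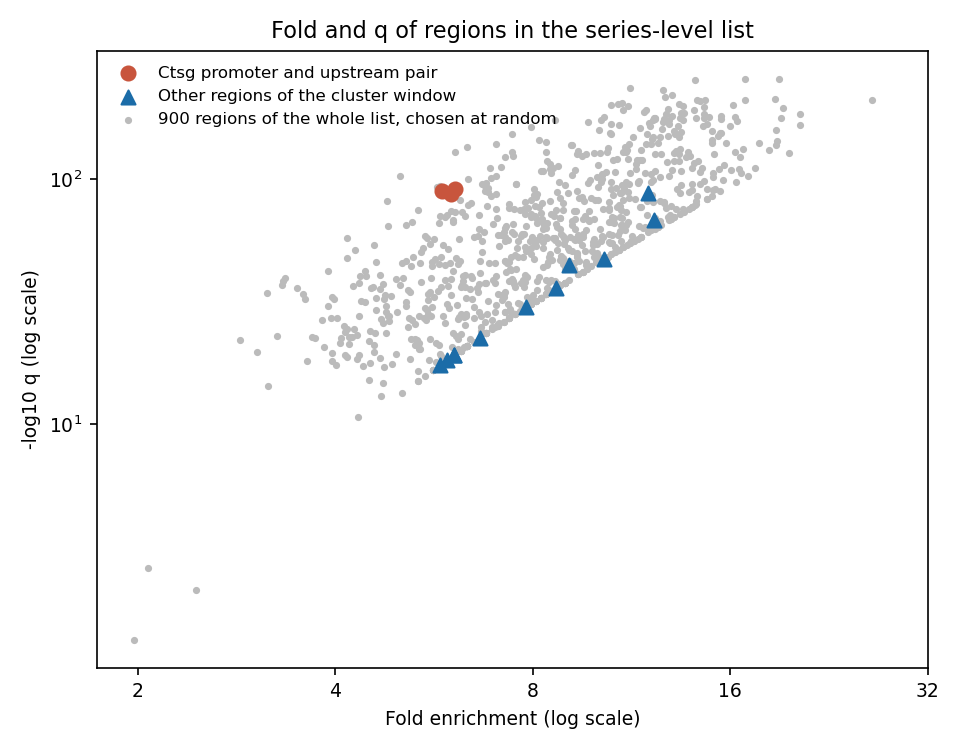
Fold enrichment (horizontal, log scale) against -log10 q (vertical, log scale) in the series-level list. Circles are the Ctsg promoter and the pair before it, triangles the other 11 regions of the window, and grey points 900 regions of the whole list chosen at random. The circles lie high for their fold, with a -log10 q between 87.0 and 90.5, while most triangles lie near the lower edge.

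The 8 genes with no open promoter lay in long stretches without a region. In the series-level list 4 stretches of over 50 kb, a limit chosen after the data were seen, made up 336.5 kb or 80.0% of the window and held the start sites of these 8 genes and of 5 further protease genes. The first, 107.2 kb at chr14:55927195-56034412, held Cma1, the chymase gene Cma2 and the mast cell protease genes Mcpt1 and Mcpt9. The next, 50.2 kb at chr14:56034780-56084979, held Mcpt2 and Mcpt4. On the other side of the block, 80.9 kb at chr14:56106113-56186971 held Gzme, Gzmd, Gzmg and Gzmn, and 98.2 kb at chr14:56205317-56303527 held Gzmf, Gzmc and Gzmb. The median distance between neighbouring regions over the whole list was 8.64 kb. Among the 75109 such distances, 4.72%, 11.4%, 6.52% and 5.25% were at least as long as these 4. Each distance counts once whatever its length, so these are not shares of the bases of the genome. The share of all bases in stretches of over 50 kb is not given here, so the 80.0% has no background beside it. The regions that part the stretches from each other, before Mcpt9 and Gzmn and at the 3′ end of Gzmf, were in neither replicate's thresholded list. The longest stretch between the first and last of the 10 genes was therefore 93.0 kb in the series-level list and 156.2 kb in replicate 1's and 156.1 kb in replicate 2's.

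Cma1 had its nearest summit 17.6 kb after its start site, in a region with a fold of 9.92 in replicate 1 that was in replicate 2 only in the looser list, with a fold of 6.14. It was farther from its nearest summit than 78.6% of protein-coding genes. These nearer genes include, by definition, all of the 61.4% with an open promoter. For Gzme and Gzmd the nearest summit was that of the farther region before Ctsg, at 14.96 and 26.9 kb. For Gzmg and Gzmn it was a single region at chr14:56186972-56187230, 27.5 kb before Gzmg and 12.5 kb before Gzmn, in an intron of the annotated gene Gm4022. That region had a fold of 5.78 in the series-level list and was in neither replicate's thresholded list.

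Among the 7 granzyme genes of the cluster, Gzmf had the nearest region. The region, chr14:56205085-56205316, overlapped the 3′ end of Gzmf, 6.21 kb after its start site, and also lay in an intron of Gm4022. It had a fold of 6.65 in the series-level list and was in the looser lists of the replicates alone, with a fold of 7.09 in replicate 1 and 5.01 in replicate 2. Its summit has the AP-1 word TGACTCA within 50 bp. For Gzmc this was the nearest region too, at 29.4 kb. Gzmb, the granzyme that cleaves caspases in target cells, was the most distant of the 10 genes, with its nearest summit 41.4 kb before its start site. It was farther than 84.2% of protein-coding genes, which again include all of the 61.4% with an open promoter.

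The looser series-level list added 8 regions to the 14 in the window, which made 22. Over the whole series it held 125024 regions, against 75148 in the conservative list. The 4 long stretches held 2, 2, 2 and 0 of the added summits, in order along the chromosome. Of the 8 added regions, 2 lay at promoters of genes outside the 10: Mcpt2 with a fold of 3.90 and Cma2 with a fold of 3.47. The Cma2 summit lay 405 bp before a start site of that gene and inside the annotated Mcpt-ps1. The row nearest to the IDR threshold from below was chr14:56055427-56055885, 6.73 kb after the start site of Mcpt4, with a fold of 6.21 and a -log10 IDR of 0.993. The lowest value among the 14 regions was 1.43, at chr14:56303528-56303999, which was merged from 2 rows and may carry the IDR of either. A row 3.23 kb before Gzmn had a fold of 6.21 and a -log10 IDR of 0.688, with a fold of 7.65 in replicate 1 and 3.87 in replicate 2. Within Gzmd, only the looser list of replicate 1 held a row, 2.81 kb after the start site with a fold of 3.69. In the stretch with Gzmf, Gzmc and Gzmb the looser lists held 0 summits, in the series-level list and in either replicate. Since the files give no read counts, a gene with no region is one where none passed a threshold.

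The other regions of the window lay toward its ends. The gene Sdr39u1, which is no protease gene, had an open promoter with a fold of 14.3 in replicate 1 and 8.40 in replicate 2, and 11.99 in the series-level list. Between it and Cma1 stood regions at chr14:55905607-55905811, chr14:55918580-55919018 and chr14:55926593-55927194, with a series-level fold of 6.07, 10.3 and 8.67. A region 4.12 kb before Mcpt9, chr14:56034413-56034779, had a fold of 6.07 and the PU.1 word, as ACTTCCTC, 16 bp from its summit. Beyond Gzmb stood 2 regions, at 41.4 and 42.1 kb, with a fold of 5.92 and 7.80.

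Not every region of the window was in the replicates' own thresholded lists. Replicate 1's thresholded list held 9 of the 14 (64.3%, exact 95% binomial interval 35.1 to 87.2%), against 81.9% of all series-level regions. Replicate 2's held 8 of 14 (57.1%, 28.9 to 82.3%), against 69.4%. Both intervals contain the value over all regions, and they cover counting error only. Both replicates had 8 of 14 (57.1%, 28.9 to 82.3%), against 66.1% of all regions. Neither had 5 of 14 (35.7%, 12.8 to 64.9%), against 14.7%. These intervals too contain the values over all regions. The 5 were the regions 5.46 kb before Sdr39u1, 4.12 kb before Mcpt9, 12.5 kb before Gzmn and at the 3′ end of Gzmf, and the nearer of the pair beyond Gzmb. The looser list of each replicate held all 14.

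The 8 regions in both thresholded lists had medians of 8.44 for fold and 504.5 bp for width, against 9.61 and 567 bp over the 49669 such regions of the series. The 5 in neither list had medians of 6.07 and 259 bp, against 5.41 and 302 bp over 11077 regions. In the looser lists these 5 had a fold between 5.95 and 7.09 in replicate 1 and between 4.32 and 5.01 in replicate 2. Fold values, which are not on 1 scale between lists, were larger in replicate 1 than in replicate 2 for each of the 14 regions. The medians of the thresholded lists run the same way, at 9.08 over replicate 1's list and 7.74 over replicate 2's.

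**Figure D3:**
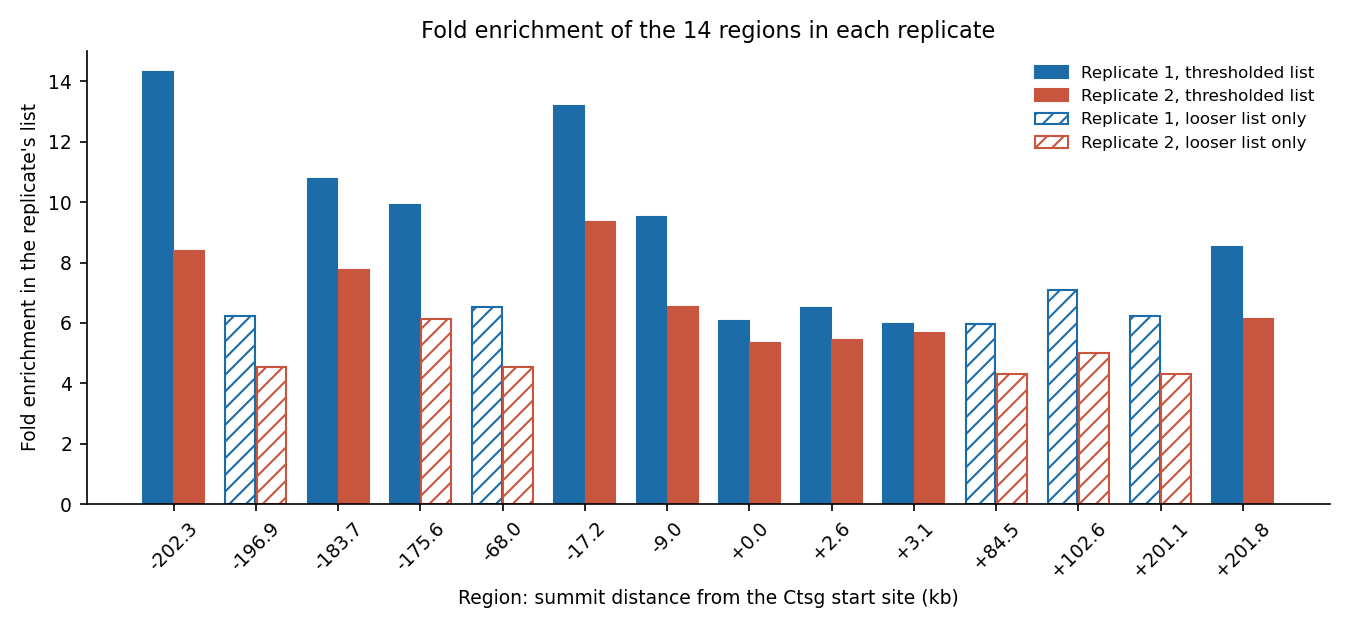
Fold enrichment (vertical) of the 14 regions in replicate 1 (blue) and replicate 2 (red), ordered by summit distance from the Ctsg start site (kb). Filled bars are regions in a replicate's thresholded list, and hatched bars those in its looser list alone. The 5 regions hatched in both replicates have a fold of at most 7.09, and the Ctsg promoter and the pair before it are close in height between replicates.

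In the series-level list, regions covered 1.58% of the window, against 1.30% of chromosome 14 and 1.57% of the 20 chromosomes analysed. The value for the window depends on the list and the flank, with 1.11% in replicate 1's list, 0.972% in replicate 2's and 2.24% in the series-level list with a flank of 100 kb. The chromosome values are for the series-level list alone, so the replicates' values have no background beside them. In the series-level list the window held 3.33 regions per 100 kb, against 2.85 over the chromosomes. Windows of the same length laid end to end held a median of 8 regions, and 62.3% of these 6248 windows held fewer than 14. The median fold was 6.36 in the window and 8.09 over the list, and the median -log10 q was 40.0 against 52.8. Replicate 1's 9 regions had a median fold of 9.50, against 9.08 over its list. Replicate 2's 8 regions had one of 6.34, against 7.74.

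Granzymes C to G are close copies of each other. Over the 10 pairs of granzymes C to G, promoters were identical at a median of 88.4% of aligned bases (range 86.1 to 94.0%) and coding sequences at 84.7% (range 73.3 to 94.8%). Pairs with Ctsg had medians of 52.0% for promoters and 62.6% for coding sequences, and pairs with Mcpt8 54.7% and 62.6%. No value for unrelated sequences is given here, so the lower shares cannot be read as likeness. The promoter of Gzmn was less like those of its neighbours than its coding sequence. With Gzmf it shared 56.3% of promoter bases and 83.1% of coding bases. The closest promoters, those of Gzme and Gzmd, differ at 18 of 299 aligned bases. They are shown here to let their spacing of differences be read, with mismatched or unaligned bases in capitals, from chr14:56120576-56120875 and chr14:56132544-56132843 on the reverse strand.
Gzme promoter: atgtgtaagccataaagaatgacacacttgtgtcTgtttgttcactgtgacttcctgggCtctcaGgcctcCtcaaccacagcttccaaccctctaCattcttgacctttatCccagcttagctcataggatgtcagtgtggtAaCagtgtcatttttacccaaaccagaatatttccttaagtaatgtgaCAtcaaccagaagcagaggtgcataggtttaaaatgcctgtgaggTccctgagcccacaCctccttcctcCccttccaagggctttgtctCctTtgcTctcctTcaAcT
Gzmd promoter: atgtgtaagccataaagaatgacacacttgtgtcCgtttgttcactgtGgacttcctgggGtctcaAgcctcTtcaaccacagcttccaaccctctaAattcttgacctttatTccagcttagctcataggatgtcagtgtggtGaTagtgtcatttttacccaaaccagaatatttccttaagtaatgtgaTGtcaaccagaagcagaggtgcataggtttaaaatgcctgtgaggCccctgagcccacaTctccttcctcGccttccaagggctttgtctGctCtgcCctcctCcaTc

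**Figure D4:**
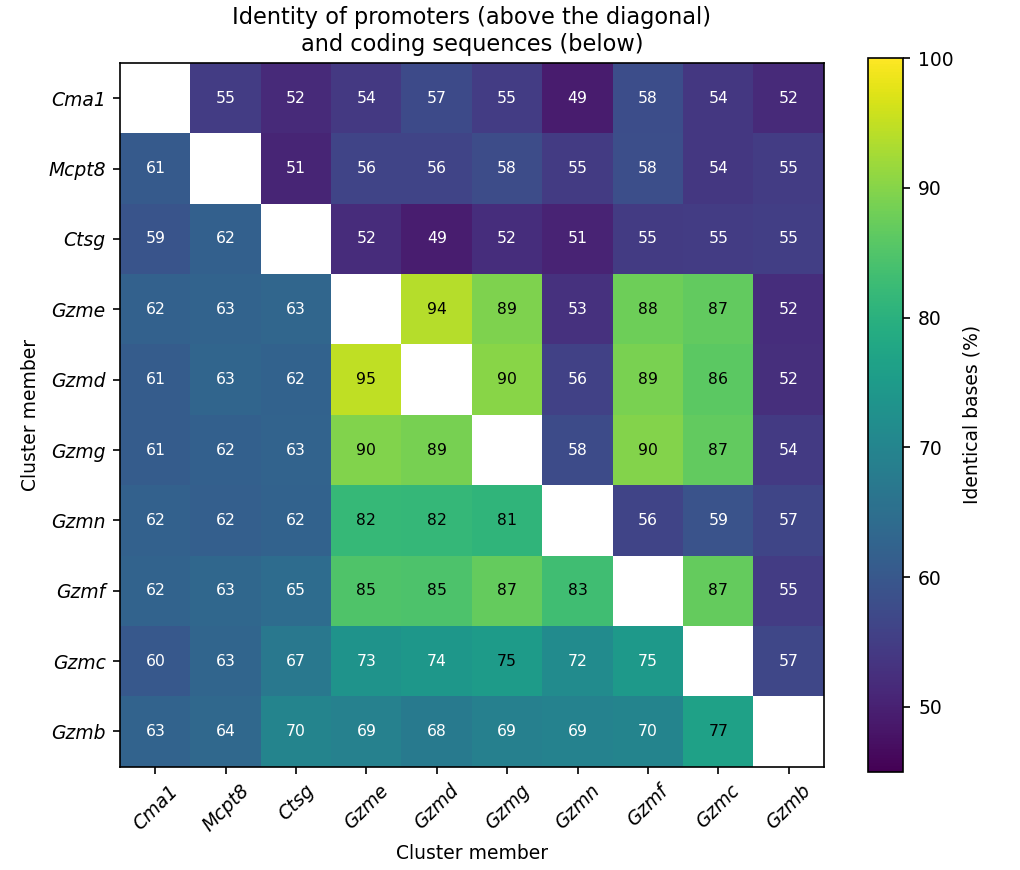
Percent of identical aligned bases between the 10 genes in genome order, for promoters of 300 bases above the diagonal and coding sequences below it. Gzme, Gzmd, Gzmg, Gzmf and Gzmc form a block of 86.1 to 94.0% in the promoters, while the promoters of Ctsg and Mcpt8 reach at most 55.1% and 58.2% with any other gene.

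Most words of 50 bases in the granzyme promoters occur once in the genome. In the promoters of the 10 genes between 90 and 100% of such words were unique. The lowest shares were at Gzmd (90.0%) and Gzmg (91.0%), and with words of 100 bases the share was 100% at all 10. These promoters are of 300 bases, narrower than the 1000 bp used to call one open. In the gene bodies the share of unique 50-base words was lower at Gzme (81.7%), Gzmc (83.3%), Gzmg (83.8%) and Gzmd (84.1%). The bodies of Cma1, Gzmb, Gzmf and Gzmn had 92.2 to 97.9%, that of Mcpt8 99.0% and that of Ctsg 100%. Over the window 80.4% of 50-base words were unique, against 88.6% of words taken along the genome and 98.4% of words at the summits of the series. Within the window the open block had 99.0%. The 4 long stretches had, in order along the chromosome, 75.6%, 84.1%, 80.9% and 82.2%. The 50-base words at the 14 summits were all unique. Repeats masked in the reference took 21.5% of the block and 33.9%, 41.5%, 36.4% and 44.2% of the stretches, against 34.3% of the genome. The stretch between the region before Gzmn and that after Gzmf, 17.9 kb, was 83.0% repeats and had 23.7% unique words. The share of these differences in the absence of regions was not tested, and neither read length nor mapping filters are stated in the sources used.

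**Figure D5:**
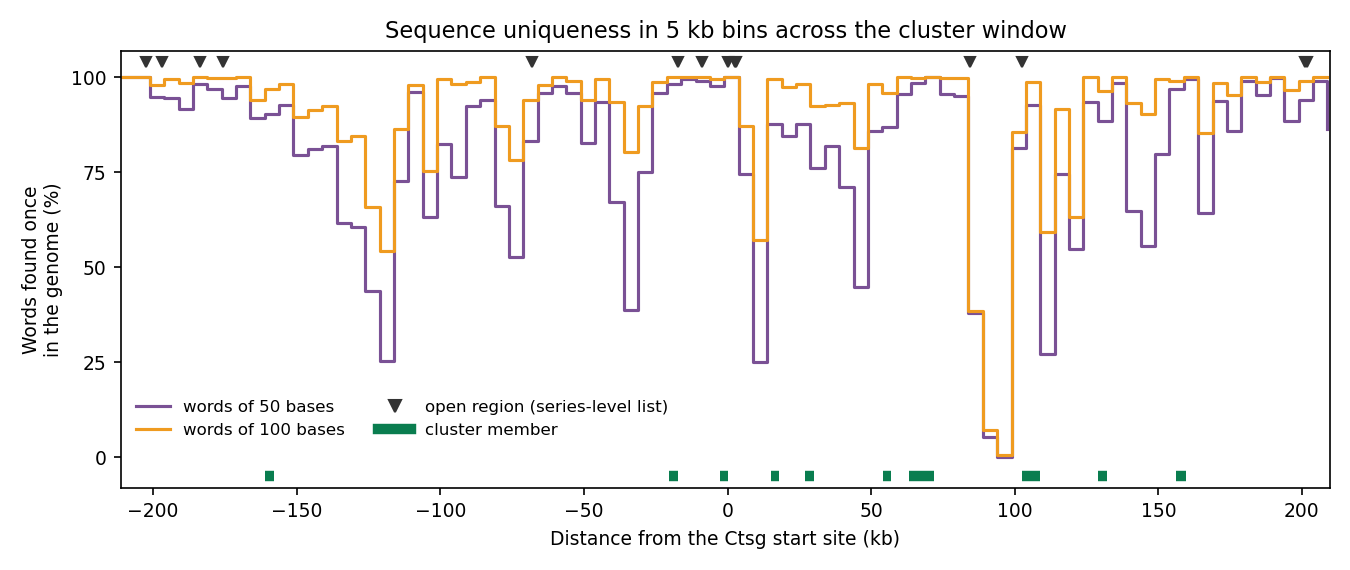
Percent of words found once in the genome, in 5 kb bins across the window, for words of 50 bases (purple) and 100 bases (orange), by distance from the Ctsg start site (kb). Triangles mark open regions and green bars the 10 genes. The share is 99.0% for 50-base words over the open block and 23.7% in the stretch just after the 3′ end of Gzmf.

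Words of blood transcription factors were searched at the 14 summits. The RUNX word TGTGGT was within 50 bp of 3 of 14 summits, against 6.52% of promoter summits and 18.1% of distal summits of the series. The AP-1 word TGAGTCA matched 2 summits, against 2.08% of promoter and 5.31% of distal summits. The MYB words, AACTGAC and also AACNGTT, matched 2 as well, against 1.80% and 3.50%. The PU.1 word GAGGAAGT was near 1 summit, against 3.01% and 8.73%, and a GATA word, AGATAA and also TGATAA being searched, near 1, against 2.36% and 5.99%. The ETS core CCGGAAGT, the CEBP word TTGCNNAA, the T-box word AGGTGTGA, the CTCF core AGGGGGC and an IRF word matched 0. In the same order these are near 3.75%, 4.32%, 0.0964%, 7.86% and 1.05% of promoter summits and 0.473%, 10.6%, 0.279%, 5.30% and 1.75% of distal ones. Both strands were searched and the words do not contain each other. In the RefSeq promoters, open or not, the RUNX word was present in 9 of the 10 genes, all except Gzmn, against 16.8% of 32851 promoters. It was thus present in the open promoters of Mcpt8 and Ctsg and in 7 of the 8 promoters with no region. Those 7 include the promoters of granzymes C to G, which are 86.1 to 94.0% identical to each other. The 9 promoters are therefore not separate cases. The 8 promoters with no region held 0 to 3 CpG dinucleotides. A word match is no evidence of binding.

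Genes that act with these proteases mostly had open promoters. The lists used here were drawn up with earlier results of these data known, so their counts are descriptions only. Of 9 genes for granule storage, protease processing and inhibition, 8 had an open promoter, against 61.4% of all genes. Ctsc, which encodes the activating peptidase cathepsin C, had a fold of 12.1, and Srgn, for serglycin, 5.40. The intracellular inhibitors Serpinb9 (of granzyme B), Serpinb1a (of neutrophil proteases) and Serpinb6a had a fold of 13.5, 6.42 and 8.81. Prf1, for the pore protein perforin that lets granzymes into target cells, had 10.4, Hdc, which makes histamine, 8.27, and Ndst2, which sulfates heparin, 10.7. The mast cell carboxypeptidase gene Cpa3 was the exception. Of the 5 other proteases of the cluster 0 were open, and in the looser series-level list 2, against 69.2% of all genes there. The Mcpt9 promoter had only 37.3% unique 50-base words, and those of Mcpt1 and Mcpt4 had 80.0% and 84.3%. Whether this bears on the absence of a region was not tested. Of 10 granule serine proteases encoded elsewhere, 2 were open, the neutrophil protease genes Elane with a fold of 6.84 and Prss57 with 5.40.

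Markers of GMP, mast cells and lymphocytes were read in the same way, against 61.4% of all genes open in the series-level list, 60% in replicate 1 and 56.6% in replicate 2. The marker lists were drawn up with earlier results of these data known, so the counts are descriptions and no independent check of the cell label. Elane and Prf1 also stand in the lists of granule genes above. All 8 GMP and early neutrophil markers, among them Cd34, Kit, Mpo and Cebpa, were open in both replicates. Of 8 mast cell and basophil markers, 1 was open in the series-level list and 0 in replicate 2. It was Gata2, with a fold of 4.01. The basophil and mast cell genes Fcer1a, Ms4a2, Tpsab1, Tpsb2, Il1rl1 and Prss34 had no open promoter in any of these lists, while Mcpt8 had one in each. Of 8 T and NK cell markers 3 were open, Klrb1c with a fold of 7.13, Prf1 with 10.4 and Eomes with 7.98. Eomes was not open in replicate 1, which left 2 of 8 there. Cd3e, Cd3g, Cd8a and Ncr1 were open in none of these lists, and Tbx21 was open in the looser list alone, with a fold of 5.84.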

How the data were processed

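The deposited files are peak lists in mm10, per the submitters' file list, with no read counts, so depth is unknown and no limit was computed from it. Which aligner and peak caller made them, in which versions and with what Tn5 shift, is not stated in the sources used. Each row carries a fold enrichment ratio and a -log10 q value as deposited by the authors, and the ranked list between replicates a -log10 IDR. In that list 8 columns hold single-replicate values and were not used. Rows of the conservative series-level list overlapping by 1 bp were merged, and each region took the summit, fold and q of its row with the highest fold. The IDR was matched by interval, so in a region of more than 1 row it may be that of another row. Replicate values came from each replicate's thresholded list and, where said, its looser list. With 1 group of 2 replicates no test between conditions exists, and values are descriptions. Genes are GENCODE vM21 on GRCm38.p6, whose chromosomes are those of mm10. Alignments (match 2, mismatch -1, gap open -5, gap extension -1, end gap -0.5) used Biopython 1.88 with Python 3.11.15. Word counting used numba 0.67.0 and was tested on simulated sequence. Named genes were the 10 cluster genes, every coding gene of the window and the lists given. The members, lists and motifs were chosen with earlier results of these data known.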

Additional observations from a re-analysis of the deposited data

How the results depend on the processing

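The pair of open promoters, Mcpt8 and Ctsg, was counted as 2 in 6 of 7 alternatives, and as 1 when the lower-fold part of the list was left out. Of the 14 regions, the single replicates' lists held 8 to 9, the looser series-level list 22 and regions of the upper part by fold 5. A flank of 20 kb gave 9 and one of 100 kb gave 23. Merging rows within 150 bp, which joins the pair before Ctsg, gave 13. The percent covered was 0.972 to 1.11 in single replicates, 2.11 in the looser list, 0.712 in the upper part by fold, 1.19 with the short flank and 2.24 with the long one. The longest stretch without a region inside the span was 93.0 kb, and 156.1 to 156.2 kb in single replicates, 83.7 kb in the looser list and 168.5 kb in the upper part by fold. Counting only stretches wholly inside the span, an alternative chosen after seeing the data, gave 80.9 kb. The median fold ran from 6.34 to 9.50 in single replicates and was 10.3 in the upper part by fold. The looser lists held 100% of the regions in either replicate, and replicate 1's thresholded list held 100% of the 5 regions in the upper part by fold, while replicate 2's held 80%. No paired analysis was possible because there is 1 group. Depth is unknown, and the causes of these changes were not tested beyond the change of list or window itself.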

Other observations

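Among the granule serine proteases encoded outside the cluster, the 8 without an open promoter differed in how near a region lay. Prtn3, the gene of proteinase 3, had a summit 1.69 kb before its start site with a fold of 6.73, and Cfd, for complement factor D, one 2.08 kb after it with a fold of 5.63. Prtn3, Cfd and Gzmk had a promoter summit in the looser list, with a fold of 2.46, 2.69 and 3.47. Gzmk also had a region 1.38 kb before its start site with a fold of 14.1, and Gzmm one at 5.99 kb with a fold of 2.86. Gzma was the most distant of the 10, at 46.5 kb. The mast cell tryptase genes Tpsab1 and Tpsb2 had their nearest summit at 13.0 and 33.8 kb, in the same region with a fold of 11.1. Cpa3 had a region 2.00 kb before its start site with a fold of 6.05.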
